A study of Mus musculus with 2 samples.

Results

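The collagen genes were taken as every gene of the table whose whole symbol is Col, a number, a and a number, which gave 43 of the 19169 genes listed. They were sorted into 11 fibrillar genes (types I, II, III, V, XI, XXIV and XXVII), 9 basement membrane genes (types IV, VII, XV and XVIII), 8 network genes (types VI and VIII), 9 fibril-associated genes (types IX, XII, XIV, XVI, XIX, XX and XXII) and 6 transmembrane and other genes (types XIII, XVII, XXIII, XXV, XXVI and XXVIII). The cells came from gastrocnemius muscle taken 14 days after an injection of cardiotoxin (CTX), a snake toxin that destroys fibers and sets off regeneration, from male mice with both copies of the gasdermin gene Gsdme (WT, C57BL/6J) or with a global Gsdme deletion (GSDME-KO, here KO). Both groups were injured, no uninjured muscle is in the series, and the age of the mice is not given in the sources used here. There were 5 mice per genotype by the methods but 1 library for each, so nothing separates mice within a genotype. No comparison between the libraries has a replicate check, no p-value is given, and the 95% intervals, given in square brackets, cover counting error only.

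Collagens are secreted or membrane-bound proteins of 3 chains wound into a triple helix, which requires glycine at a fixed step along each chain. Fibrillar collagens assemble into the load-bearing fibrils of tendon, fascia and the sheaths around muscle fibers, type IV forms the sheet under endothelium and around each fiber, type VI forms beaded filaments beside that sheet, and fibril-associated collagens sit on fibril surfaces. In skeletal muscle most fibrillar collagen is made by fibro-adipogenic progenitors (FAPs), the PDGFRα+ mesenchymal cells between fibers, and by tenocytes of the tendon and aponeurosis, while endothelial cells and pericytes lay down vessel basement membrane.

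The glycine repeat is written in the genes themselves, and it sets the fibrillar class apart. The exons below come from the mouse build GRCm38 (mm10), which is the build of these data, read on the coding strand, with each glycine codon (GGN, in frame) in capitals. The fibrillar genes are shown because the first 3 carry most collagen RNA here, and the others because they are the basement membrane and network genes on which the later comparisons turn.
Col1a1, coding exon 8, chr11:94939904-94939957, plus strand: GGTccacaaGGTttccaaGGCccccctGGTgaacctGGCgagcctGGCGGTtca
Col1a2, coding exon 8, chr6:4515481-4515534, plus strand: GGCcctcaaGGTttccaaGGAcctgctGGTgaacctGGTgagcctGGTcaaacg
Col3a1, coding exon 6, chr1:45325360-45325413, plus strand: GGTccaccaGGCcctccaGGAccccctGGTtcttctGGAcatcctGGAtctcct
Col4a1, coding exon 9, chr8:11244486-11244569, minus strand: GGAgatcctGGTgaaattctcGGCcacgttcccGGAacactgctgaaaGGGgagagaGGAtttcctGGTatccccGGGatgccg
Col4a2, coding exon 12, chr8:11408052-11408144, plus strand: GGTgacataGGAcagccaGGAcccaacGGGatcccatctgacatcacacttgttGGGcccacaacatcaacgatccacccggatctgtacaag
Col8a1, stretch of coding exon 2, chr16:57628684-57628755, minus strand: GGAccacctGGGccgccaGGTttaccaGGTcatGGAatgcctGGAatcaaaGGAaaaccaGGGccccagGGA
The fibrillar exons are 54 bases long and hold a glycine codon in every unit of 9 bases, without a break. The type IV exons and the Col8a1 stretch hold breaks, where no glycine codon stands 9 bases on from the start of the last unit. Over whole coding sequences, the longest unbroken run of such units was 216 to 344 units in the fibrillar genes (median 338), 30 to 75 in the basement membrane genes (median 42), 37 to 87 in the network genes (median 52.5), 32 to 113 in the fibril-associated genes (median 57) and 23 to 56 in the remaining genes (median 41.5). Of the exons that lie within runs of at least 6 units, 302 of 509 in the fibrillar genes were of 54 bases, against 18 of 228 in the basement membrane genes. All but 1 of those 509 fibrillar exons had a length that is a multiple of 9.

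Several members are neighbors in the genome. Col4a1 and Col4a2 lie head to head on chromosome 8 and their first exons overlap by 22 bases in the annotation. Col4a4 and Col4a3 lie head to head on chromosome 1, with 71 bases between their starts (chr1:82586850-82586920, given on the minus strand), and this stretch is shown because the pair did not keep 1 ratio across cell types.
Col4a4 to Col4a3, between starts: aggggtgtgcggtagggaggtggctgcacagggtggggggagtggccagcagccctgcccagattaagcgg
Col4a5 and Col4a6 form another such pair on the X chromosome, 1308 bases apart, while Col3a1 and Col5a2 on chromosome 1 meet tail to tail, 24614 bases apart.

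The libraries held 6354 barcodes (WT) and 7078 (KO), with 44758518 and 50930009 unique molecular identifiers (UMIs, each 1 captured RNA molecule) and medians of 5740 and 5962.5 UMIs per cell. Levels below are CPM, the UMIs of a gene per 1000000 UMIs summed over a group of cells, always in the order WT, KO. The kit reads the 5′ end of each molecule, so a level is not divided by gene length, and different genes are set against each other only as 1 ratio compared over cell types. Cell types are clusters drawn without any collagen gene and called "-like" after marker genes that include no collagen. FAP-like cells held the 8 FAP markers at 44145 and 40745 CPM. Tenocyte-like cells held the 8 tenocyte markers at 22079 and 20768 CPM and the FAP markers at 20736 and 18146. Smooth muscle-like cells also held the 7 pericyte markers, at 19237 and 21529 CPM, a level above that in pericyte-like cells. Gsdme itself was sparse, at 5.03 and 4.65 CPM over all cells (log2 KO over WT -0.11, interval -0.38 to 0.16), so its RNA did not separate the libraries, and they are called by their labels. Which exons the deletion removes is not given in the sources used here. A total of 4 barcodes occurred in both libraries, and 101 and 109 cells were called doublets and kept. Cells in 5 clusters (661 and 651) stayed unnamed.

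Collagen RNA made up 3.07% and 2.99% of all UMIs, and it was concentrated in tenocyte-like and FAP-like cells. Tenocyte-like cells (443 and 392 cells) gave 12.1% and 9.85% of their UMIs to the 43 genes, and FAP-like cells (1876 and 2360) gave 4.39% and 4.82%. Schwann-like cells (196 and 156) followed at 1.07% and 1.02%, then smooth muscle-like cells at 0.922% and 1.02%, pericyte-like cells at 0.712% and 0.724%, endothelial-like cells at 0.565% and 0.618%, cells like muscle stem cells (MuSC-like) at 0.50% and 0.496% and lymphatic endothelial-like cells at 0.219% and 0.27%. Macrophage-like cells stood lowest of these types, at 0.0667% and 0.0718%. The rankings of levels here and below cover these 9 types. Perineurial-like cells were too few to rank (12 and 20), but gave 1.36% and 3.24%, and they are named where they lay above the 9 types. In each library 1 of them held 42.6% and 42.8% of these UMIs. They carried FAP markers at 14505 and 28568 CPM, against 2330 and 3234 for perineurial markers, and the part of FAP RNA in their collagen levels was not tested. The order was the same in both libraries except for Schwann-like and smooth muscle-like cells, which both stood at 1.02% in the library labelled KO. There 1 Schwann-like cell held 15.8% of the collagen UMIs of its type. Without the top cell of each type, collagen in KO was at 8693 CPM in Schwann-like and 9771 in smooth muscle-like cells. Schwann-like cells also carried FAP markers, at levels given below, and the part of FAP RNA in their collagen levels was not tested. Single cells varied widely within a type: in FAP-like cells the 10th percentile, median and 90th percentile of the share per cell were 1.56%, 3.68% and 7.31% in WT and 1.92%, 4.0% and 7.9% in KO. Tenocyte-like cells spread further, with 3.78%, 8.91% and 19.9% in WT and 3.72%, 7.34% and 16.7% in KO. The ranges of FAP-like and tenocyte-like cells overlapped in each library.

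**Figure D1:**
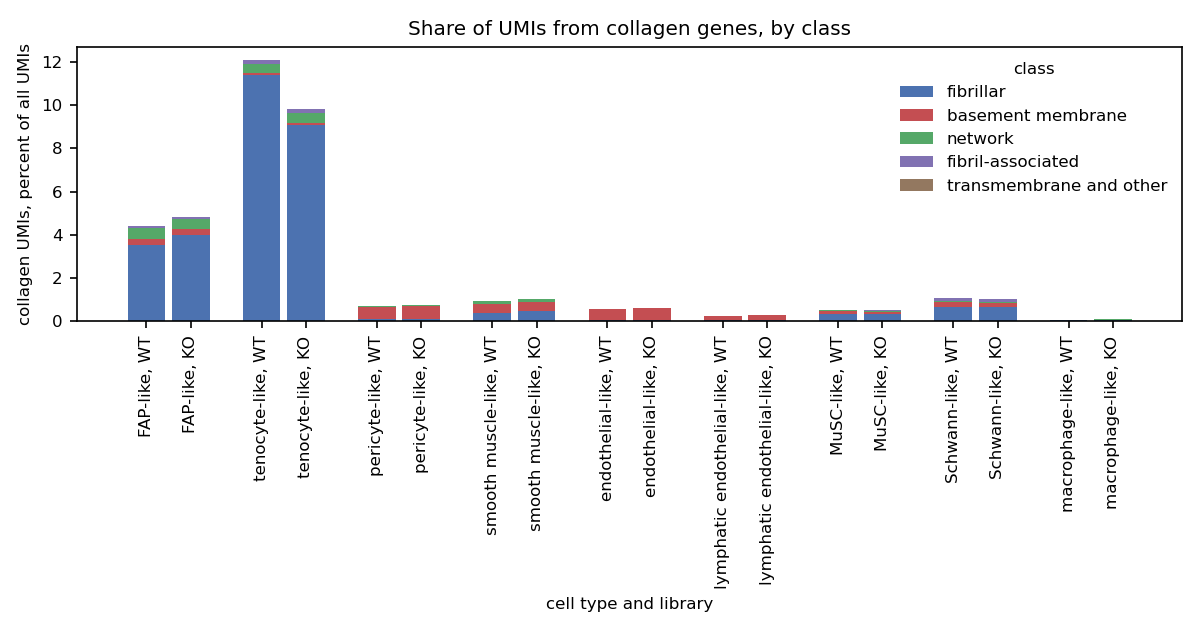
Stacked bars give the percent of all UMIs that came from collagen genes of each class (vertical axis, from 0) in 9 cell types of each library (horizontal axis). Tenocyte-like bars reach 12.1% and 9.85% and are almost wholly fibrillar, whereas the pericyte-like and endothelial-like bars stay below 1% and are mostly basement membrane collagen.

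The class make-up differed by cell type. Fibrillar genes took 11.4% and 9.09% of all UMIs in tenocyte-like cells and 3.52% and 4.0% in FAP-like cells. In endothelial-like cells they took 0.0426% and 0.0369% and basement membrane genes 0.512% and 0.571%, and in pericyte-like cells fibrillar genes took 0.112% and 0.0847% and basement membrane genes 0.549% and 0.588%. Smooth muscle-like cells were mixed, at 0.353% and 0.44% fibrillar and 0.422% and 0.421% basement membrane. Of the types above, network genes were highest in FAP-like (0.477% and 0.478%) and tenocyte-like cells (0.414% and 0.44%), and fibril-associated genes in tenocyte-like (0.193% and 0.207%) and Schwann-like cells (0.13% and 0.143%). Counted over the whole library, tenocyte-like cells held 55.1% and 35.3% of fibrillar UMIs and FAP-like cells 40.4% and 59.7%, so the leading source differed between the libraries, and so did the number of cells of each type. Basement membrane UMIs came in near equal parts from FAP-like cells (31.3% and 32.7%) and endothelial-like cells (29.7% and 28.2%), with 19.5% and 22.5% from pericyte-like cells.

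Among fibrillar genes, the chains of type I collagen, the main protein of tendon and scar, were highest in tenocyte-like cells. Col1a1 stood there at 54513 and 40359 CPM, against 7900 and 8356 in FAP-like, 1387 and 1241 in Schwann-like and 120.5 and 82.3 in endothelial-like cells. In Schwann-like cells 1 KO cell held 438 of 1147 Col1a1 UMIs. Col1a2, the second chain of type I, was at 51038 and 39304 CPM in tenocyte-like and 9116 and 10211 in FAP-like cells. Col3a1, the chain of type III, a collagen of thin and pliable fibrils, had the opposite order, with 14762 and 17832 CPM in FAP-like and 4736 and 7259 in tenocyte-like cells. The count of Col3a1 per Col1a1 molecule was therefore 1.87 and 2.13 in FAP-like cells and 0.0869 and 0.18 in tenocyte-like cells, and 3.31 and 5.52 in MuSC-like cells. The ratio of Col1a2 to Col1a1, whose chains are built into 1 protein, differed far less, at 1.15 and 1.22 in FAP-like and 0.936 and 0.974 in tenocyte-like cells.

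The minor fibrillar chains were also divided between these cells. Type V collagen, which starts fibrils and limits their width, was represented in FAP-like cells by Col5a1 (1177 and 1327 CPM), Col5a2 (1237 and 1422) and Col5a3 (923 and 764). Col5a3 per Col5a1 molecule was 0.784 and 0.576 in FAP-like, 0.302 and 0.244 in tenocyte-like and 2.2 and 1.82 in Schwann-like cells, so it was highest in Schwann-like cells in both libraries. Col11a1, a type XI chain best known from cartilage, reached 1177 and 1106 CPM in tenocyte-like and 9.94 and 13.3 in FAP-like cells. Col11a1 per Col5a1 molecule was 2.12 and 1.45 in the former and 0.00844 and 0.010 in the latter. Col11a2 was at 676 and 506 and the cartilage gene Col2a1 at 104 and 88.7 CPM in tenocyte-like cells. Schwann-like cells were highest for Col27a1 (225 and 374 CPM) and Col24a1 (28.1 and 30.3).

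Basement membrane genes were highest around vessels. Col4a1, which with Col4a2 forms the type IV network of nearly every basement membrane, was at 3381 [3328 to 3435] and 3620.5 [3569.6 to 3672] CPM in pericyte-like and 3238 [3197 to 3279] and 3557 [3513 to 3602] in endothelial-like cells. These levels lay closer to each other than to those of smooth muscle-like (2528 and 2449.8), FAP-like (1495 and 1171), Schwann-like (1123 and 927) and MuSC-like cells (679.6 and 647). Tenocyte-like cells had the lowest of these levels, at 342 and 397 CPM. Col4a2 per Col4a1 molecule was 0.481 and 0.482 in endothelial-like, 0.49 and 0.471 in pericyte-like, 0.368 and 0.391 in FAP-like and 0.588 and 0.615 in tenocyte-like cells, so this head-to-head pair kept a narrower range than the level of either gene. The pericyte-like cluster carried endothelial markers at 6882 and 7429.7 CPM (8 of 8 listed), against 9438 and 10303 in endothelial-like cells. Its own markers stood at 8121 and 10155, below their level in smooth muscle-like cells. Its median depth was 12866.5 and 13072 UMIs, against 4702 and 4491 in endothelial-like and 1820 and 1740.5 in smooth muscle-like cells. The part of endothelial RNA in its Col4a1 level, and in the other pericyte-like values given here, was not tested. Col15a1, a collagen that links basement membrane to the matrix outside it, was highest in FAP-like cells (748 and 645 CPM), above pericyte-like (370.4 and 472) and endothelial-like cells (297 and 405). Col18a1, the source of the fragment endostatin, was highest of the 9 types in lymphatic endothelial-like cells (469.7 and 588 CPM, with 120 of 382 KO UMIs in 1 cell) and stood at 18.6 and 27 in the other endothelial-like cells. Of the rarer type IV chains, Col4a5 was highest of the 9 in FAP-like cells (79 and 71 CPM). Col4a4 was highest of them in Schwann-like cells (53.5 and 59.5), where its neighbor Col4a3 gave 0 and 1 UMIs (the interval of the 0 reaches 3.46 CPM). FAP-like cells held both, with Col4a3 at 16.7 and 11.2 CPM and Col4a4 at 34.8 and 25.8. The few perineurial-like cells lay above these for Col4a3 (38.7 and 86.9 CPM) and Col4a4 (67.7 and 149), for Col18a1 in WT alone (522 and 199) and for Col4a5 in KO alone (29 and 74.5), each on 4 to 54 UMIs.

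Network genes were shared by mesenchymal cells. The type VI chain Col6a1 was at 1825 and 1802 CPM in FAP-like and 1646 and 1684 in tenocyte-like cells, close to each other in both libraries. Col6a2 was at 1157 and 1089 CPM in FAP-like and 999 and 980.0 in tenocyte-like cells, and Col6a3 at 1457 and 1443 in FAP-like and 1051 and 1125 in tenocyte-like cells. The 3 chains are joined into 1 monomer, yet Col6a3 per Col6a1 molecule ran from 0.26 and 0.177 in MuSC-like through 0.798 and 0.801 in FAP-like to 1.72 and 1.53 in pericyte-like and 2.67 and 1.45 in smooth muscle-like cells. Col6a2 per Col6a1 was 0.634 and 0.605 in FAP-like and 0.303 and 0.278 in MuSC-like cells. Col6a6, an alternative to the third chain, was highest in FAP-like cells (156 and 158 CPM). The short-chain collagens of type VIII, which form hexagonal lattices, were highest of the 9 types in tenocyte-like cells. Col8a1 was there at 289.7 and 436 CPM, against 146 and 262 in FAP-like cells, and Col8a2 at 140.3 and 159, against 14.2 and 16.5. Perineurial-like cells lay above them in the KO library for Col8a1 (48.3 and 695 CPM, WT and KO, the latter in 11 of 20 cells) and for Col6a5 (0 and 900.1 CPM, the latter in 8 of 20 cells), which stood at 13.2 and 10.1 CPM in FAP-like cells.

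Fibril-associated genes were unevenly divided among cell types. Col12a1, found on fibrils of tendon and muscle sheaths, was at 1006 and 1132 CPM in tenocyte-like and 80.6 and 99.5 in FAP-like cells, while Col14a1, of a close relative, was higher in FAP-like (693 and 788) than in tenocyte-like cells (401 and 324). Col22a1, a collagen of muscle-tendon junctions, was almost confined to tenocyte-like cells, which held 98.2% and 97.2% of its UMIs. There it came from 68 of 443 cells in WT and 98 of 392 in KO, and the cell with most UMIs held 8.39% and 16% of them. Col20a1 was as uneven: Schwann-like cells held 90.6% and 89.5% of its UMIs at 931 and 1075 CPM, in 31.1% and 33.3% of cells. Nearly all of that lay in 1 of the 2 Schwann-like clusters (83 and 62 cells), at 1694 and 1849 CPM, against 4.15 and 2.58 in the other (113 and 94 cells). Col27a1 (366 and 518 against 54 and 175 CPM) and Col16a1 (197 and 276 against 47.8 and 51.6) were higher in the same cluster as Col20a1, and Col24a1 (1.71 and 1.86 against 60.2 and 69.7) in the other. Col19a1 was highest in MuSC-like cells (24.8 and 38.9 CPM) and the type IX chains Col9a1, Col9a2 and Col9a3 in Schwann-like cells, where Col9a3 was at 46.9 and 32.5 CPM.

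Transmembrane and other collagens were low in every cell type, and 19 of the 43 members did not reach 100 CPM in a named type of both libraries. Col13a1, a membrane collagen of cell-matrix contacts, was highest in tenocyte-like cells (47.6 and 51.9 CPM), Col23a1 in lymphatic endothelial-like cells (41 and 89.3) and Col26a1 in MuSC-like cells (45.7 and 38.9). All 43 members gave UMIs in both libraries, the fewest being those of Col6a4 (5 and 6).

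**Figure D2:**
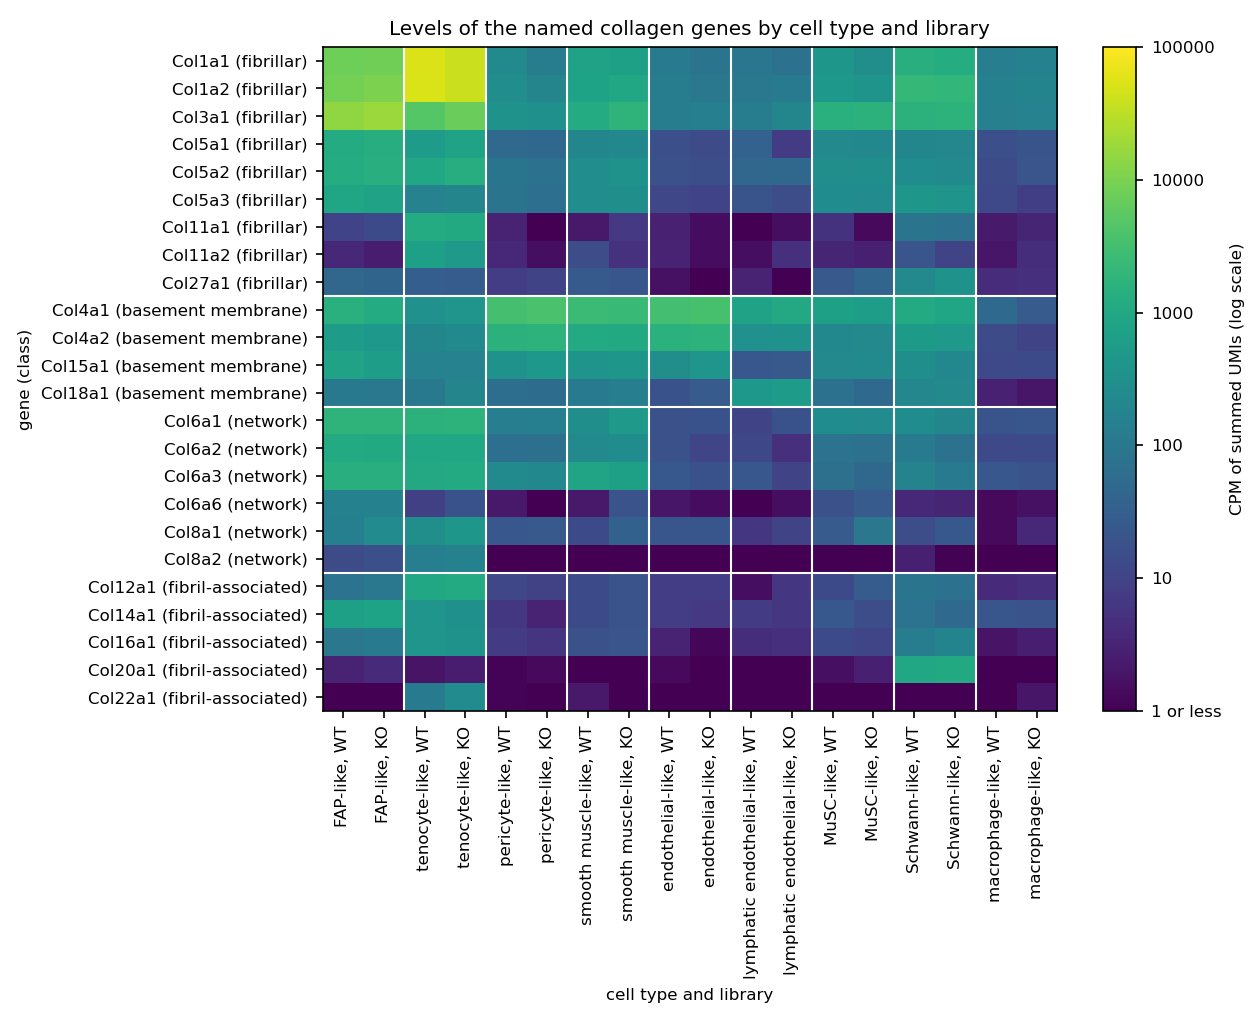
The heat map gives the CPM of summed UMIs (color, log scale, values of 1 or less drawn alike) of the 24 members with at least 100 CPM in a named cell type of both libraries, by class (rows) and by cell type and library (columns). The libraries of each type look alike, and Col11a1, Col11a2 and Col22a1 are brightest in tenocyte-like cells and Col20a1 in Schwann-like cells.

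Some collagen RNA was found in cells that should lack it. In B, T and NK cell-like cells (154 and 170 together) Col1a1 stood at 9.6% and 14.2% of its level in FAP-like cells, Col3a1 at 2.5% and 5.23% and Col4a1 at 12.1% and 9.67%. It was very uneven, since 3 cells held 83.5% and 79.4% of the collagen UMIs of T cell-like cells. At least 1 Col1a1 UMI was found in 98.7% and 99% of FAP-like cells (median 6793 and 7779 UMIs), 42.2% and 31.5% of endothelial-like cells, 40.3% and 30.5% of macrophage-like cells and 45.5% and 25.9% of the lymphoid cells. After thinning each cell to 1000 UMIs the shares were 94.9% and 97.5% in FAP-like, 13% and 9.91% in endothelial-like and 12.5% and 9.82% in macrophage-like cells. The unthinned shares of endothelial-like and macrophage-like cells were below that of lymphoid cells in WT and above it in KO, at median depths of 4702 and 4491 UMIs in endothelial-like, 5226 and 5267 in macrophage-like and 3756.5 and 3486.5 in lymphoid cells. Their Col1a1 levels, 120.5 and 82.3 CPM in endothelial-like and 137 and 154 in macrophage-like cells, were below those of lymphoid cells (758 and 1189.7). The lymphoid values rest on few cells, since 1 T cell-like cell held 348 of 468 Col1a1 UMIs in WT and 1 B cell-like cell 590 of 794 in KO. The part of free RNA in the type I values of endothelial-like and macrophage-like cells was not tested.

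Within the FAP-like and tenocyte-like cells, 7 subsets were drawn from the marker genes that the study names for FAPs. Tenocyte-like cells made up FAPs-2-like cells wholly (254 and 191) and nearly all FAPs-5-like cells (139 of 140 and 160 of 161), so these subsets are a finer view of the tenocyte-like cells. FAPs-2-like cells were the richest in collagen, at 15.4% and 13.5% of UMIs, and Pi16+ FAPs-4-like cells the poorest, at 3.09% and 3.31%. FAPs-5-like (6.5% and 6.08%) and Sfrp4+ FAPs-3-like cells (6.3% and 6.54%) came next to FAPs-2-like cells, above FAPs-0-like (4.27% and 4.34%), FAPs-1-like (4.08% and 5.07%) and FAPs-6-like cells (4.05% and 4.41%), which were not ranked alike in both libraries.

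The classes were spread unevenly over the subsets. Col1a1 was at 73603 and 61333 CPM in FAPs-2-like, 23828 and 19605 in FAPs-5-like and 14173 and 13768 in FAPs-3-like cells, against 5211 and 5395 in FAPs-4-like cells. Col3a1 peaked in FAPs-3-like cells (22000.5 and 24141 CPM) and was lowest in FAPs-2-like cells (2564 and 4409.9), which gave 0.0348 and 0.0719 Col3a1 per Col1a1 molecule, and FAPs-5-like cells lay between at 0.254 and 0.44. The basement membrane gene Col4a1 peaked in FAPs-0-like (2326 and 1783 CPM) and FAPs-1-like cells (2325 and 1731) and was at 383 and 389 in FAPs-4-like cells. Col15a1 peaked in the same subsets and ran over a wider range, from 1504 and 1204 CPM in FAPs-0-like to 56.4 and 71.3 in FAPs-4-like cells. Col14a1 ran the other way among the FAP-like subsets, at 1077 and 1044 CPM in FAPs-4-like and 901 and 1021 in FAPs-3-like cells against 384 and 429 in FAPs-0-like cells. Col11a1 was alike in the tenocyte-like subsets (1357 and 1338 CPM in FAPs-2-like, 1027 and 949.7 in FAPs-5-like cells) but Col22a1 was not: it gave 1 and 12 UMIs in FAPs-2-like cells and stood at 402 and 569 CPM in FAPs-5-like cells. Col6a5 was highest in FAPs-3-like cells (32.6 and 20.7 CPM, with 34 of 101 WT UMIs in 1 cell). Over the 5 FAP-like subsets Col4a5 ran from 102 and 93.1 CPM in FAPs-3-like to 22.5 and 10.7 in FAPs-6-like cells, and it was lower still in FAPs-2-like (3.23 and 3.88) and FAPs-5-like cells (2.57 and 5.35).

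**Figure D3:**
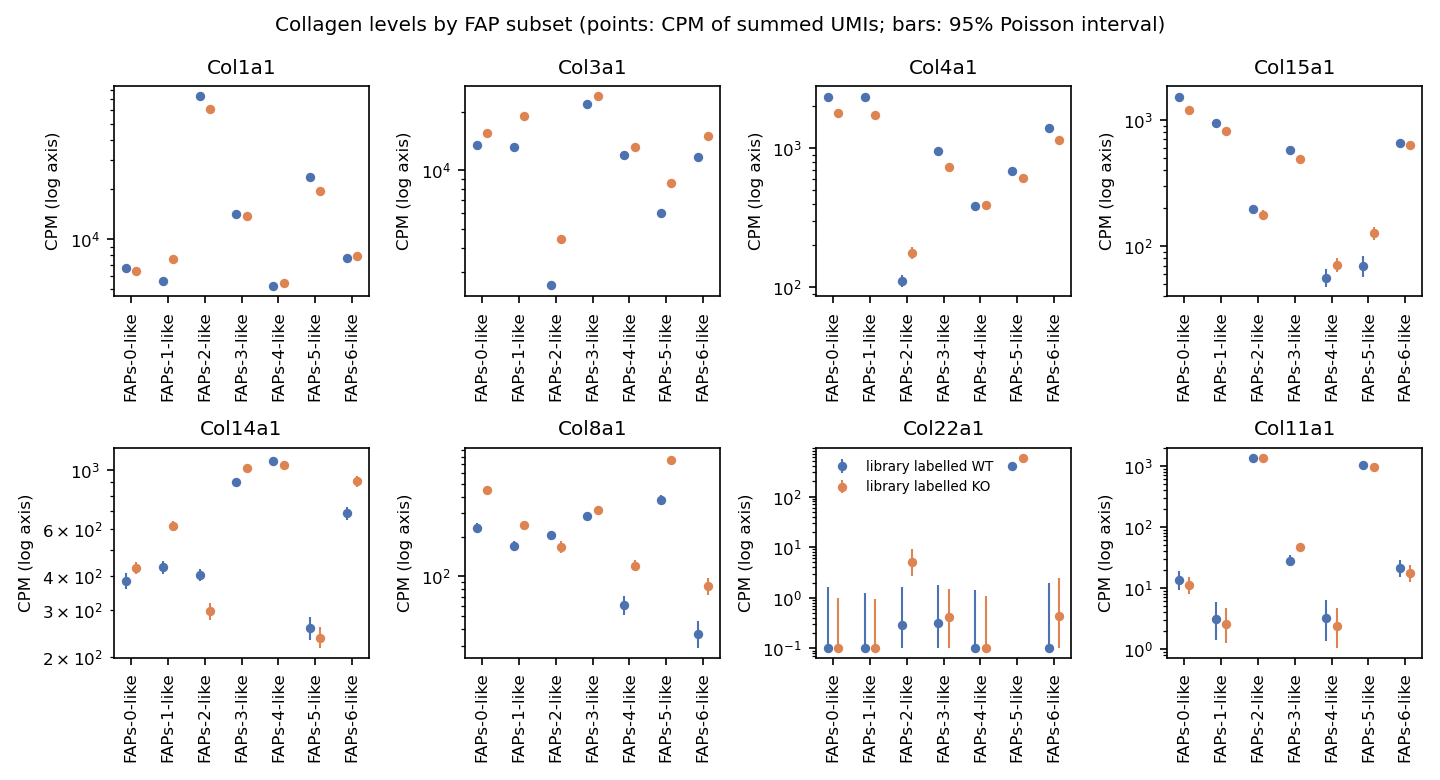
Each panel gives 1 collagen gene, with CPM of summed UMIs on a log axis (values of 0 drawn at 0.1) for the 7 subsets (horizontal axis) in each library, and bars for the 95% Poisson interval. Col1a1 is highest in FAPs-2-like cells, Col3a1 in FAPs-3-like cells, Col4a1 and Col15a1 in FAPs-0-like and FAPs-1-like cells, and Col22a1 rises above 100 CPM only in FAPs-5-like cells.

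Between the libraries, FAP-like cells held slightly more fibrillar and less basement membrane collagen RNA in the one labelled KO. Summed collagen was 43864 and 48246 CPM (log2 KO over WT 0.14 [0.13 to 0.14]). The fibrillar sum was higher in KO by 0.18 [0.18 to 0.19] and the fibril-associated sum by 0.20 [0.16 to 0.23], the basement membrane sum was lower at -0.29 [-0.31 to -0.27], and the network sum differed by 0.00 [-0.01 to 0.02]. Without types I and III the collagen sum was -0.03. The direction of the sum held for FAP-like cells alone: with tenocyte-like cells added, of which the KO library had fewer, it was -0.19. Few single genes moved far: of the 30 members with at least 50 UMIs over both libraries (13 were sparser), 1 was lower in KO by at least 1.5-fold, when 6.56% of all 11549 genes of that depth were, and 1 was higher, when 3.68% were. The higher gene was Col8a1, at 146 and 262 CPM (log2 0.84 [0.76 to 0.91]). The lower gene was Col23a1, a low transmembrane collagen with 106 and 80 UMIs (log2 -0.91 [-1.34 to -0.47]). Just inside the threshold lay Col4a3, at -0.58 [-0.86 to -0.29]. The median of the 30 members was -0.05, beside -0.06 over all genes.

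Within classes, the members of FAP-like cells did not all lean the same way. In the basement membrane class the ratios were -0.35 [-0.38 to -0.32] for Col4a1, -0.26 [-0.31 to -0.22] for Col4a2, -0.43 for Col4a4, -0.16 for Col4a5, -0.21 for Col15a1 and -0.10 [-0.20 to 0.00] for Col18a1, all below 0. In the fibrillar class Col3a1 was at 0.27 [0.26 to 0.28], Col1a2 at 0.16, Col1a1 at 0.08, Col5a1 at 0.17 and Col5a2 at 0.20, whereas Col5a3 was at -0.27 [-0.31 to -0.24]. The sparse fibrillar genes were also split, with Col11a1 at 0.42 [0.10 to 0.74], Col11a2 at -0.56 [-1.19 to 0.06] and Col27a1 at -0.12 [-0.28 to 0.04]. Of the type VI chains Col6a1 (at -0.02 [-0.04 to 0.01]), Col6a3 (at -0.01 [-0.04 to 0.01]) and Col6a6 (at 0.02 [-0.06 to 0.10]) had intervals that held 0, Col6a2 was slightly lower at -0.09 [-0.12 to -0.06], and Col6a5, with 172 and 185 UMIs, was lower at -0.40 [-0.70 to -0.09] (-0.08 [-0.41 to 0.25] without the WT cell with the most UMIs of it). Among fibril-associated genes Col12a1 (0.30), Col14a1 (0.18) and Col16a1 (0.21) were above 0, while the sparse Col9a2 at -0.50 [-1.30 to 0.29], Col9a3 at -0.36 [-1.01 to 0.29] and Col20a1 at 0.46 [-0.11 to 1.06] had intervals that held 0. The same cells held heat shock RNA at 3956 and 9193 CPM and red cell RNA at 70.9 and 571 CPM, and the tenocyte list (8 genes) at 389 and 741 CPM. The part of these in the collagen ratios was not tested, and leaving the heat shock and immediate-early genes out of the denominator gave a summed ratio of 0.15.

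**Figure D4:**
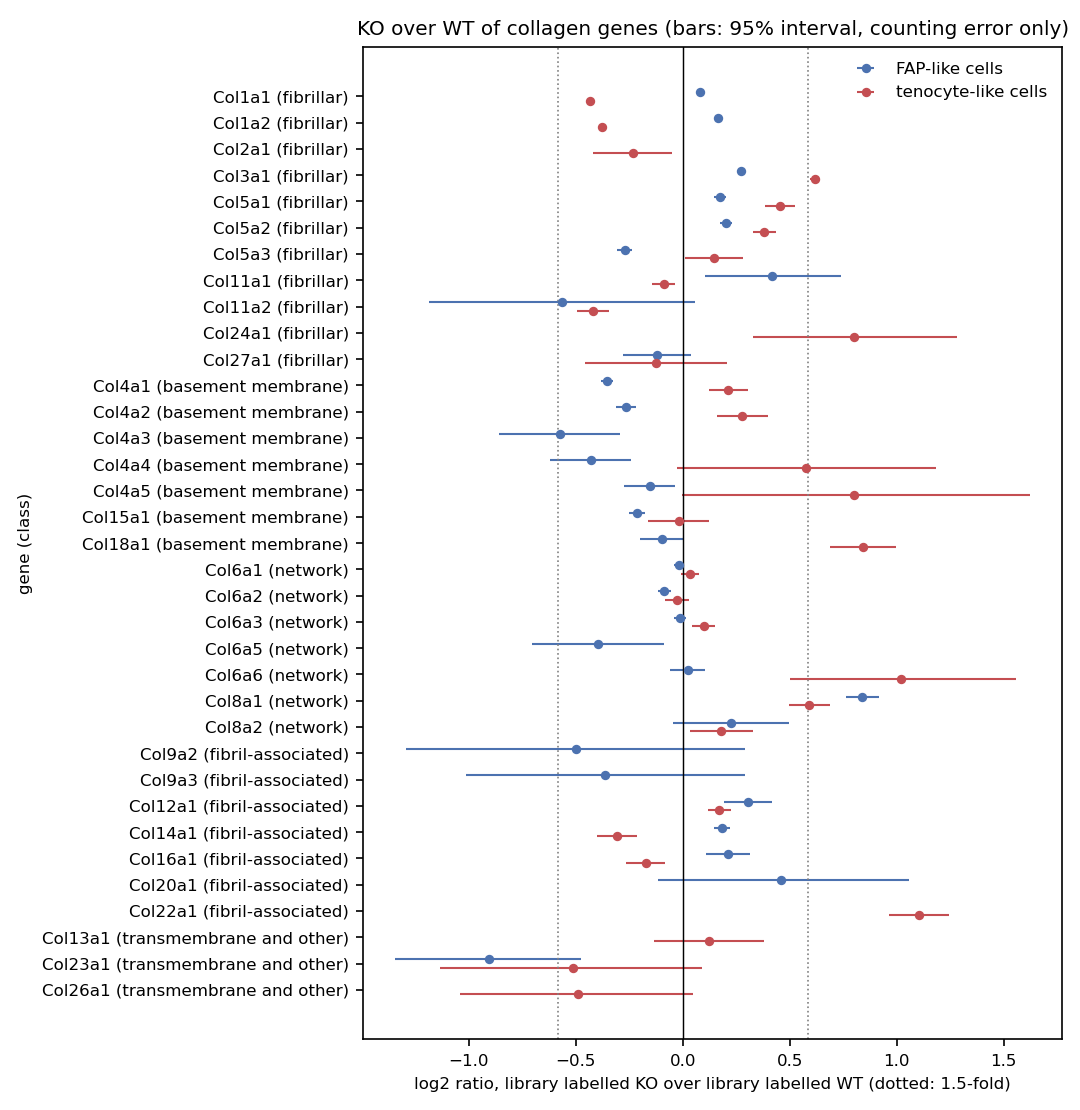
Points give the log2 ratio of KO over WT (horizontal axis) of each member with at least 50 UMIs, in FAP-like and tenocyte-like cells, with bars for the 95% counting interval and dotted lines at 1.5-fold. Col8a1 lies to the right in both types, Col4a1 and Col4a2 lie left of 0 in FAP-like and right of 0 in tenocyte-like cells, and Col1a1 and Col1a2 do the reverse. Tenocyte-like points pool subsets, and within FAPs-5-like cells Col4a1 and Col4a2 were not higher in KO.

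The lower basement membrane sum was found in some FAP subsets and not in others. It was at -0.35 [-0.39 to -0.32] in FAPs-0-like, -0.34 [-0.37 to -0.30] in FAPs-1-like, -0.24 [-0.29 to -0.19] in FAPs-3-like and -0.24 [-0.29 to -0.19] in FAPs-6-like cells. In FAPs-4-like cells, where Col4a1 was low in both libraries, it was at 0.02 [-0.07 to 0.11]. Col4a1 was at 2326 and 1783 CPM in FAPs-0-like cells and 2325 and 1731 in FAPs-1-like cells. The fibrillar sum was furthest above 0 in FAPs-1-like cells, at 0.43 [0.42 to 0.44], and close to 0 in FAPs-3-like cells, at 0.07 [0.06 to 0.07]. Col3a1 was higher in KO in all 7 subsets, from 0.13 in FAPs-3-like to 0.78 in FAPs-2-like cells. Col8a1 was higher in 6 of 7, at 232 and 449 CPM in FAPs-0-like, 60.4 and 120.5 in FAPs-4-like, 379 and 758 in FAPs-5-like and 36.7 and 84 in FAPs-6-like cells. It was lower in FAPs-2-like cells (205 and 167 CPM, log2 -0.30 [-0.48 to -0.12]). Col5a3 differed most in FAPs-0-like cells (1374 and 966 CPM, log2 -0.51 [-0.58 to -0.44]), which also had the largest heat shock difference of the subsets (log2 2.22). Heat shock RNA stood there at 4914 and 22868 CPM, and Hspa1a, Hspa1b and Hspb1 were among the 10 leading genes. With collagen genes kept in clustering, FAPs-0-like cells numbered 208 and 223, against 330 and 419, and 137 and 250 cells led by Hspa1a stayed unnamed. The part of heat shock in the ratios of this subset was not tested. Col23a1 was lower in FAPs-0-like cells (32 and 16 UMIs, log2 -1.67 [-2.63 to -0.76]) and in FAPs-1-like cells (37 and 13 UMIs, -1.92 [-2.96 to -0.98]), and in FAPs-3-like cells it stood at 5.16 and 5.28 CPM.

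**Figure D5:**
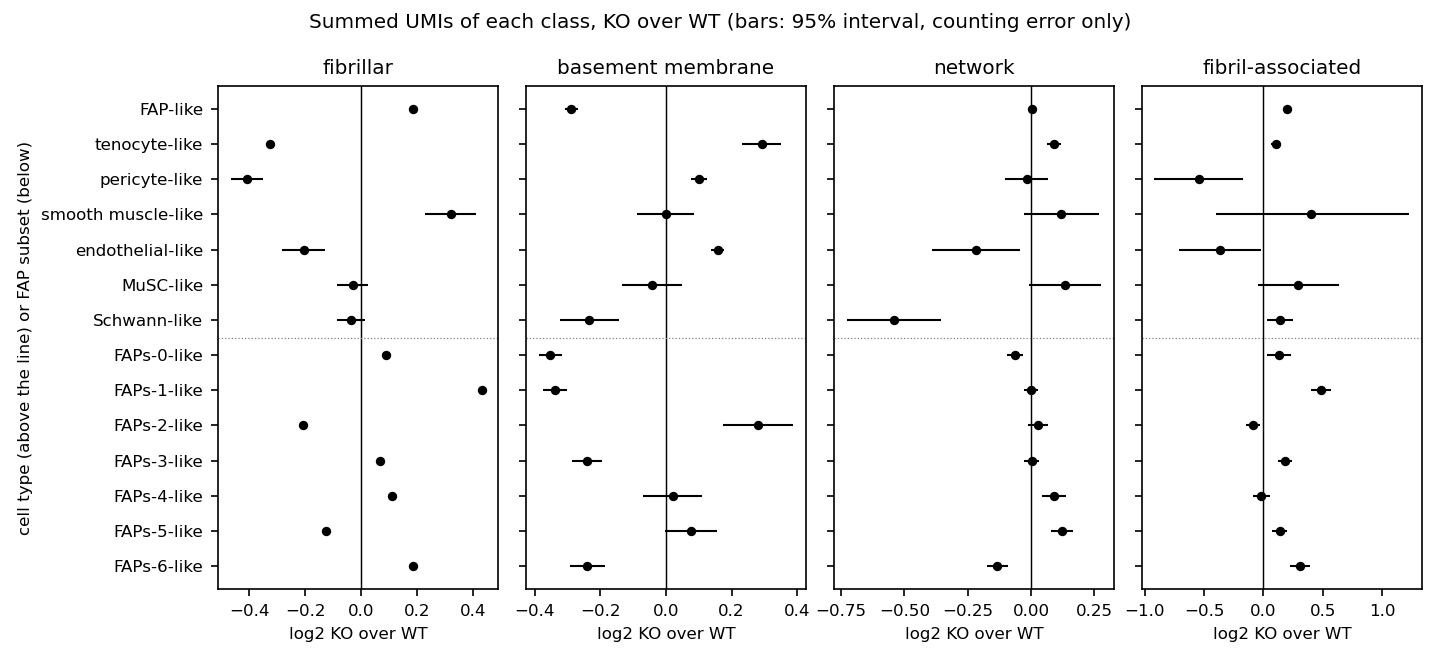
Each panel gives 1 class and each point the log2 ratio of KO over WT of the summed UMIs of that class (horizontal axis) in a cell type (above the dotted line) or FAP subset (below it), with bars for the 95% counting interval. The basement membrane sum lies at -0.35 in FAPs-0-like and 0.29 in tenocyte-like cells, and the fibrillar sum at -0.41 in pericyte-like and 0.43 in FAPs-1-like cells.

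In tenocyte-like cells type I collagen RNA was lower and several less abundant members were higher in the library labelled KO. Col1a1 was at 54513 and 40359 CPM (log2 -0.43 [-0.44 to -0.43]) and Col1a2 at 51038 and 39304 (-0.38 [-0.39 to -0.37]), which brought the collagen sum to -0.30 [-0.30 to -0.29]. No member of the 30 with enough UMIs was lower by at least 1.5-fold, against 4.26% of all 9394 genes of that depth, and 7 were higher, against 6.88%. These were Col3a1 (4736 and 7259 CPM, log2 0.62 [0.59 to 0.64]), Col8a1 (0.59 [0.50 to 0.69]), Col18a1 (105 and 188 CPM, 0.84 [0.69 to 1.0]), Col22a1 (118 and 254 CPM, 1.10 [0.97 to 1.24]) and, at under 25 CPM in both libraries, Col4a5 (0.80), Col6a6 (1.02) and Col24a1 (0.80). Leaving out the KO cell with most UMIs of the gene brought Col3a1 to 0.57, Col8a1 to 0.52 and Col4a5 to 0.58, under 1.5-fold. The type XI chains were lower, at -0.09 for Col11a1 and -0.42 [-0.49 to -0.34] for Col11a2, as was Col14a1, at -0.31 [-0.40 to -0.21].

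The mix of the 2 tenocyte-like subsets was not the same in the libraries: FAPs-2-like cells numbered 254 and 191, and FAPs-5-like cells 140 and 161. Within each, the type I ratios were smaller than over all tenocyte-like cells, at -0.26 and -0.28 for Col1a1, and Col3a1 stayed higher in KO, at 0.78 [0.74 to 0.82] and 0.51 [0.48 to 0.55]. Col22a1 was at 0.50 [0.36 to 0.64] within FAPs-5-like cells, or 0.28 [0.13 to 0.43] without 1 KO cell that held 194 of 1168 UMIs, and Col8a1 at -0.30 in FAPs-2-like and 1.0 [0.86 to 1.14] in FAPs-5-like cells. Col4a1 was higher in KO in FAPs-2-like cells (112 and 176 CPM) but not in FAPs-5-like cells (687 and 615). The same held for Col4a2, at 87.3 and 128 CPM in FAPs-2-like and 395 and 365 in FAPs-5-like cells. Col18a1 was under 1.5-fold in each, at 44.4 and 53.4 CPM in FAPs-2-like and 230 and 343 in FAPs-5-like cells. Col24a1 stood at 32.1 and 36 CPM in FAPs-5-like cells and gave 11 and 15 UMIs in FAPs-2-like cells. The sparse Col4a5 and Col6a6 gave at most 31 UMIs in either subset of a library. In sums over mixed subsets, fewer cells of a subset and less RNA per cell cannot be told apart. The heat shock list was higher in KO by 0.90 (log2) in tenocyte-like cells.

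In endothelial-like and pericyte-like cells, the latter also carrying endothelial markers, the KO library held slightly more basement membrane collagen RNA. In smooth muscle-like cells, which held pericyte markers at a higher level than pericyte-like cells, the basement membrane sum was at 0.00 [-0.09 to 0.09]. In endothelial-like cells (1147 and 1125) it was at 0.16 [0.14 to 0.18], with Col4a1 at 3238 and 3557 CPM (0.14 [0.11 to 0.16]), Col4a2 at 0.14 [0.10 to 0.18], Col15a1 at 297 and 405 CPM (0.45 [0.36 to 0.53]) and Col18a1 at 0.54 [0.21 to 0.87]. Of 17 members with enough UMIs, 1 was lower by at least 1.5-fold (Col6a2, -0.65 [-1.08 to -0.24], with 3.93% of all genes lower) and 1 was higher (Col28a1, with 4.36% higher). For Col6a2, 1 WT cell held 36 of 130 UMIs, and without it the ratio was -0.19 [-0.64 to 0.26]. In pericyte-like cells (300 and 357) the basement membrane sum was at 0.10 [0.08 to 0.12] and the fibrillar sum at -0.41 [-0.47 to -0.35]. The part of endothelial RNA in these pericyte-like ratios was not tested. Of 21 members there, 1 was lower (Col1a1, 232 and 131 CPM, -0.82 [-0.96 to -0.68], with 3.54% of all genes lower) and 3 were higher (Col4a4 0.60, Col4a5 1.17 and Col28a1, with 5.66% higher). Without 1 WT cell, which held 165 of 1040 UMIs, Col1a1 was at -0.58 [-0.73 to -0.44], and without 1 KO cell Col4a4 was at 0.51 [-0.22 to 1.27], both under 1.5-fold. FAP markers, which are not of these cells, were also lower in the KO library, at 482 and 328 CPM in pericyte-like and 563 and 411 in endothelial-like cells (8 of 8 listed), and their part in the lower type I values was not tested. In lymphatic endothelial-like cells (83 and 80) Col4a1 was at 762 and 1058 CPM (0.47 [0.31 to 0.64]) and Col18a1 at 0.33 [0.11 to 0.55]. For Col18a1, 1 KO cell held 120 of 382 UMIs, and without it the direction turned, to -0.03 [-0.27 to 0.21]. Col4a1 without the KO cell with the most UMIs of it was at 0.35 [0.17 to 0.52].

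Col28a1, a small collagen with von Willebrand factor domains known from peripheral nerve, gave the largest ratio of any member in the 6 cell types compared here (chr6:7997808-8192617). The targeted gene Gsdme lies on the same chromosome (chr6:50188888-50263862), and any part of that position in the ratios of Col28a1 was not tested. In pericyte-like cells Col28a1 gave 1 and 87 UMIs, those of the KO library lying in 49 cells (log2 6.19 [3.68 to 11.51]). In endothelial-like cells it gave 2 and 88 UMIs, those of the KO library lying in 60 cells (log2 5.54 [3.65 to 8.61]). The lower counts hold 1 and 2 molecules, so the ratios are known only within these wide intervals, but the levels in KO were 16.3 and 12.8 CPM. Pericyte-like cells also carried endothelial markers, and the part of endothelial RNA in their Col28a1 counts was not tested. Schwann-like cells held the gene in both libraries (30.9 and 58.4 CPM, 0.92 [0.27 to 1.59]), and of their 2 clusters the one without Col20a1 was higher in KO (20.8 and 101 CPM) and the one with Col20a1 was not (39.3 and 28).

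In MuSC-like cells (249 and 248) summed collagen was at -0.01 [-0.06 to 0.03], but 1 WT cell held 1220 of 9293 UMIs, and without it the sum was at 0.17 [0.13 to 0.22]. Of 20 members with enough UMIs, 2 were lower (Col1a1 -0.61 [-0.78 to -0.44] and Col14a1 -0.66, with 9.79% of all genes lower) and 5 were higher, with 13.0% of all genes higher. The latter were Col8a1 (27.4 and 94.3 CPM, 1.78 [1.31 to 2.27]), Col12a1 (1.09), Col27a1 (0.80), Col6a6 (0.67) and Col19a1 (0.65). Of the lower genes, Col1a1 was at -0.16 [-0.34 to 0.03] without 1 WT cell that held 230 of 826 UMIs, and Col14a1 at -0.42 [-1.26 to 0.37] without the WT cell with the most UMIs of it. Of the higher genes, Col6a6 (0.52) and Col19a1 (0.58) lay under 1.5-fold without 1 KO cell each. In Schwann-like cells, 3 of 24 members were lower (Col6a2 -0.70, Col6a3 -0.67 and Col14a1 -0.63, with 5.59% of all genes lower) and 2 were higher (Col27a1, 225 and 374 CPM, 0.73 [0.49 to 0.98], and Col28a1, with 6.76% higher). Each of the 3 lower genes fell short of 1.5-fold without the WT cell with the most UMIs of it (Col6a2 -0.50, Col6a3 -0.52 and Col14a1 -0.52). These 3 genes were all among those high in FAP-like cells, and FAP markers in Schwann-like cells were at 6979.6 and 3006 CPM (8 of 8 listed), whose part in these values was not tested. Heat shock RNA was higher in the KO library in both types, by 1.03 in MuSC-like and 1.05 in Schwann-like cells (log2).

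Genes that modify, export, cut, cross-link or bind collagen were read from a list of 42, of which 41 had enough UMIs in FAP-like cells. Of these, 1 was lower by at least 1.5-fold, P3h2, a prolyl 3-hydroxylase (-0.92), and 2 were higher, the prolyl 4-hydroxylase subunit P4ha3 (0.88) and the propeptide-cutting protease Tll1 (0.88), when 6.56% and 3.68% of all genes were lower and higher. The median was 0.05, beside -0.06 over all genes. All 5 lysyl oxidases, which cross-link fibrils, had ratios above 0, from 0.11 for Loxl3 to 0.46 for Loxl4, with Lox at 0.39, and the intervals of 4 lay above 0, when 59% of all genes of that depth had ratios below 0 and 13.9% had intervals above 0. Serpinh1, the collagen chaperone, was at 1259 and 1538 CPM (0.29), and P4hb, a subunit of prolyl 4-hydroxylase, at -0.19. Serpinh1 is itself a heat shock gene, and its value stands beside the heat shock levels given above. In tenocyte-like cells 39 of the list had enough UMIs, with 2 lower (Adamts3 and Loxl4), 4 higher (Plod2, Colgalt2, Loxl1 and Itga11) and a median of -0.07, when 4.26% of all genes were lower and 6.88% higher.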

How the data were processed

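Single cells of injured gastrocnemius were captured with a 5′ UMI kit and sequenced as 1 library per genotype, with a barcode suffix that the series' design text assigns to GSDME-KO or WT. Per the labels, the submitters' processing notes name Cell Ranger 2.1.1 and the build mm10, while the study's methods name another Cell Ranger release, Seurat, removal of doublets and a filter on mitochondrial reads. The number of barcodes used here equals that in the study's results after quality control, and is below the number its methods give as retained. The table listed 0 mitochondrial genes, so the mitochondrial filter could not be checked. The deposited values are natural log of 1 plus UMIs per 10000 of a cell, scaled by the authors. UMIs were recovered from them as whole numbers in all 13432 cells (29528482 values above 0, largest distance from a whole number 0.256) and summed per group of cells and library.

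Clusters were drawn from 2000 variable genes without collagens (30 principal components, Harmony integration rewritten for this work, 20 neighbors, resolution 0.8) with scanpy 1.11.5 and igraph 0.11.9, and FAP-like and tenocyte-like cells were then clustered together from 20 components, which gave 29 clusters and 11 groups. A cluster took the type whose markers were highest in it, where at least 3 of them were detected. Where none was among its 10 leading genes, at least 75% of them had to be higher than in other cells (all of them for FAP subsets). Clusters led by genes of another type or mixing lineages, and shallow ones that no marker led, stayed unnamed. The members, gene lists and part of the naming rules were chosen with earlier results of these data known. CPM carry exact Poisson intervals, and KO over WT ratios carry intervals from the exact binomial share (numpy 2.4.6, scipy 1.17.1, pandas 2.3.3), tested on simulated data. Members with at least 100 CPM in a named cell type of both libraries are named, as are those past 1.5-fold with at least 50 UMIs and the most abundant of each class, and others named here were chosen after their values were seen. Perineurial-like cells (12 and 20) were left out of the naming rule and of rankings. Gene models and sequences came from GENCODE M21 and GRCm38. Protein sequences and promoters (34 of 43 members had an entry) were not used. Alternatives changed scaling, denominator, clustering, depth and doublets. Some chosen after seeing the data left heat shock and immediate-early UMIs out of the denominator or joined FAP-like and tenocyte-like cells. Another such alternative left out the cell with most UMIs of a gene in 1 library.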

Additional observations from a re-analysis of the deposited data

Results flagged for a closer look

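The class sums went in opposite directions between the libraries in different cell types, each value resting on 1 library per genotype, and the differences between cell types were not tested. In FAP-like cells the fibrillar sum was higher in KO (log2 0.18), and in tenocyte-like cells it was lower (-0.33). The basement membrane sum was lower in FAP-like cells (-0.29) and higher in tenocyte-like (0.29), pericyte-like (0.10) and endothelial-like cells (0.16). The pericyte-like cells also carried endothelial markers. The tenocyte-like sums pool subsets whose mix differed between the libraries (FAPs-2-like 254 and 191 cells, FAPs-5-like 140 and 161). Col4a1, the main type IV gene there, was at 112 and 176 CPM in FAPs-2-like and 687 and 615 in FAPs-5-like cells. Col1a1 was lower in KO in both subsets.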

How the results depend on the processing

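Of 563 log2 ratios recomputed under alternatives (78 results), 537 kept their sign. Beside the main share of collagen UMIs in FAP-like cells (4.39% in WT and 4.82% in KO), the share was 4.22% and 4.56% as a mean over cells, 4.59% and 5.07% with collagen out of the denominator, 4.41% and 4.86% with collagen genes kept in clustering, 4.14% and 4.78% without integration, and 4.47% and 4.94% at resolution 0.4. The following were chosen after seeing the data: 4.46% and 4.94% with heat shock and immediate-early UMIs out of the denominator, and 6.67% and 5.86% with FAP-like and tenocyte-like cells together. The log2 ratio of summed collagen, 0.14 in the main analysis, was 0.11 as a mean over cells, 0.14 with collagen out of the denominator, 0.21 without integration, 0.15 with heat shock and immediate-early UMIs out, 0.12 as the mean within subsets and -0.19 with tenocyte-like cells added. Members lower by 1.5-fold, 1 in the main analysis, numbered 2 as a mean over cells, 2 without integration, 3 at resolution 0.4, 2 without cells under 1000 UMIs and 4 with tenocyte-like cells added. Members higher, 1 in the main analysis, numbered 2 with collagen genes kept, 3 without integration and 3 at resolution 0.4. The endothelial-like basement membrane sum, 0.16, was 0.10 as a mean over cells. With tenocyte-like cells added, signs turned for the fibrillar sum (-0.21), Col1a1 (-0.54), Col1a2 (-0.41), Col11a1 (-0.57), Col12a1 (-0.18) and Col16a1 (-0.20), and the KO library held fewer tenocyte-like cells (392 against 443). Col11a1 in FAP-like cells was -0.048 as a mean over cells. Summed collagen in FAPs-3-like cells was -0.0061 with subsets drawn by marker scores and -0.0018 with collagen genes kept, and the cause was not tested. Leaving out, from 1 library, the cell with most UMIs of a gene (chosen after seeing the data) ended 0 of 2 calls of members past 1.5-fold in FAP-like, 3 of 7 in tenocyte-like, 2 of 4 in pericyte-like, 1 of 2 in endothelial-like, 4 of 7 in MuSC-like and 3 of 5 in Schwann-like cells, and turned Col18a1 in lymphatic endothelial-like cells to -0.0313 (from 0.33). Integration and resolution also moved the number of FAP-like cells, to 1439 and 1956 without integration and 1373 and 1815 at resolution 0.4. With 1 library per genotype no library could be left out. No paired analysis was possible because each genotype has 1 library and no result comes from a test.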
